A study of Mus musculus with 4 samples.

Results

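The distal ends of the mouse autosomes were the last 5 Mb of chromosomes 1 to 19, counted back from the last base covered by any of the 4 libraries. They were cut into tiles of 5 kb, and a tile was kept where the summed inputs held at least 5 distinct reads. This gave 18154 tiles of 19008 in the distal ends, out of 452956 kept autosomal tiles, and the 434802 others formed the rest of the chromosomes. Mouse chromosomes carry their centromere at one end, so that the distal end is the telomere that lies far from it. The compared cells were embryonic stem cells (ESC) of the 46C line, of strain 129/Ola, grown with serum and leukemia inhibitory factor, and neural progenitor cells (NPC) made from the same line, taken as rosette-like Sox1-GFP+ cells at day 9 of monolayer differentiation in N2B27 medium. Neither group had a siRNA or shRNA treatment. Each cell type gave 1 5-hydroxymethylcytosine (5hmC) library and 1 input library, and the DNA of both was barcoded and immunoprecipitated with the 5hmC antibody in a single tube.

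5hmC is made from 5-methylcytosine by the TET dioxygenases. In embryonic stem cells it is known from gene bodies and from distal regulatory elements. The outermost stretch of a mammalian chromosome, next to the TTAGGG repeats of the telomere, is known to carry heterochromatin marks and dense CpG methylation, while the megabases further inside are gene-rich on some chromosomes and gene-poor on others. Sequences and genes of build mm9 were not used here, so that regions are given by position on mm9.

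The measure was the number of distinct 5hmC reads per distinct input read of the same cell type, called the 5hmC level. Its size depends on how deeply both libraries were sequenced, so that only ratios of levels between regions can be read. The NPC/ESC ratio also scales with the depths of the libraries, and is read only against its value in other regions. A difference in overall 5hmC between the cell types would enter this ratio as well, and was not separated from depth. The autosomes held 7042662 distinct reads in the ESC 5hmC library, 4944294 in the ESC input, 1709355 in the NPC 5hmC library and 6438000 in the NPC input. Each group was a single library, so replicate error could not be measured and no test was made. The intervals given are 95% intervals of counting error, and PCR copies are not independent molecules.

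Summed over chromosomes, the distal ends were richer in 5hmC than the rest of the chromosomes, more so in ESC than in NPC. In ESC 402377 reads of the 5hmC library over 230026 of the input gave a level of 1.75 (1.74 to 1.76), against 1.41 (1.41 to 1.41) in the rest, a ratio of 1.24 (1.23 to 1.25). In NPC 87975 over 295288 reads gave 0.298 (0.2957 to 0.3002), against 0.264 (0.263 to 0.264), a ratio of 1.13 (1.12 to 1.14). The NPC/ESC ratio was 0.170 (0.169 to 0.172) in the distal ends and 0.187 (0.187 to 0.188) in the rest, so that it was 0.910 times as high distally (0.901 to 0.918). The chromosomes were divided in this: the ratio was lower distally beyond counting error on 9 autosomes, higher on 6 and within it on 4, with a median of 0.996. All 3 ratios turned to the other side of 1 when only the last 2 Mb were taken, with 0.861 in ESC, 0.942 in NPC and 1.09 for the NPC/ESC ratio. The distal excess in ESC was 1.09 among tiles of like input depth, and the NPC/ESC ratio then lay at 1.02 times that of the rest.

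The inputs were themselves uneven. Distal tiles held 28.9 input reads on average and tiles of the rest 24.9, and the NPC/ESC ratio of input reads was 0.985 times as high in the distal ends (0.980 to 0.991). In the outermost 100 kb that value was 0.898 (0.857 to 0.941). The share of plus-strand reads lay between 49.8% and 50.1% in all 4 libraries in the distal ends. Beyond the comparison at like input depth above, the part of input depth and base composition in the 5hmC levels was not tested.

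The summed value hid a division among chromosomes. In ESC the distal end was richer than the rest of its own chromosome on 13 of the 19 autosomes beyond counting error and poorer on 5, namely chromosomes 3, 12, 13, 17 and 18. Chromosome 7 was even, with a ratio of 1.001 (0.981 to 1.02). In NPC the distal end was richer on 14 autosomes, chromosome 7 included at 1.03 (1.001 to 1.06), and poorer on the same 5. The median over chromosomes was 1.14 in ESC and 1.08 in NPC. Distal ESC levels spanned 7.69-fold, from 0.356 on chromosome 18 to 2.73 on chromosome 11, whereas the rest of the chromosomes spanned 1.44-fold. Distal NPC levels spanned 2.001-fold, against 1.17-fold in the rest. The rest of each chromosome is an average over many more tiles than its distal end, which narrows its span. The spans of other 5 Mb windows were not computed.

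**Figure D1:**
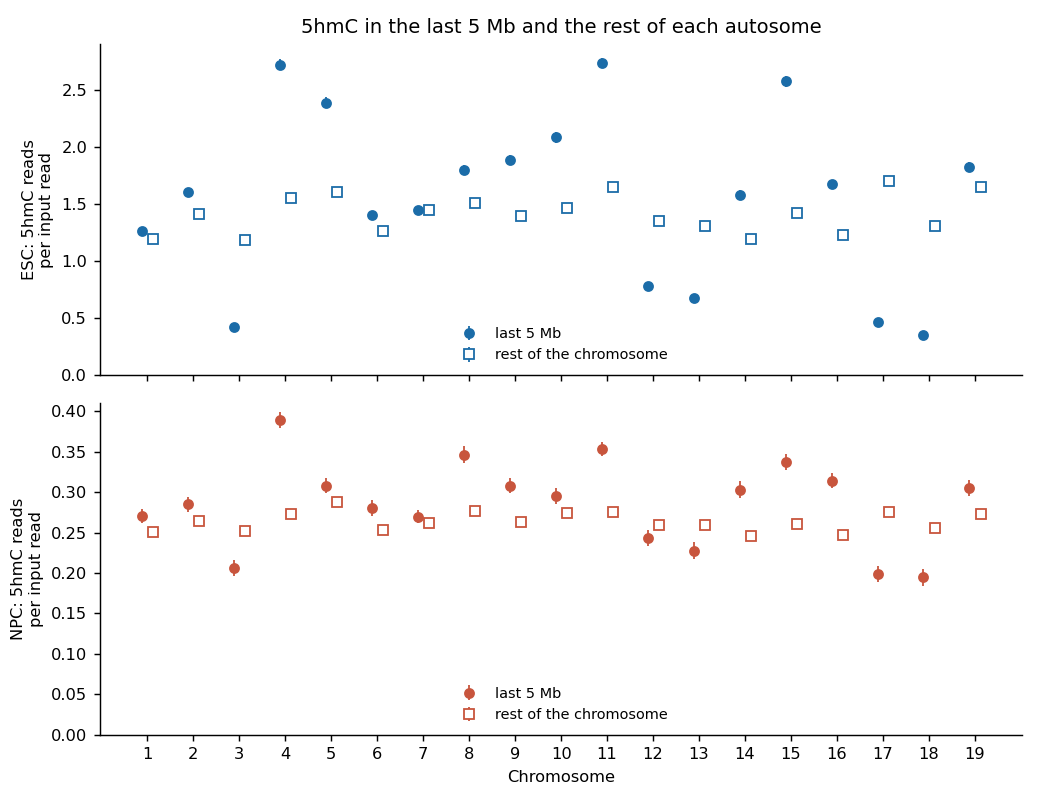
Distinct 5hmC reads per input read in ESC (top) and NPC (bottom) for each autosome, with filled circles for the last 5 Mb, open squares for the rest of the chromosome and bars for 95% counting intervals (1 library per group). The circles of chromosomes 3, 12, 13, 17 and 18 lie below their squares in both cell types, and those of chromosomes 4, 11 and 15 lie well above.

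Chromosome 15 had the highest distal excess in ESC. Its last 5 Mb held 39165 immunoprecipitated and 15198 input reads of ESC, a level of 2.58 (2.53 to 2.63) against 1.43 in the rest, a ratio of 1.81 (1.77 to 1.84). In NPC 6284 over 18617 reads gave 0.338 (0.328 to 0.347), a ratio of 1.30 (1.26 to 1.34), and this was the highest of the 20 windows of 5 Mb on that chromosome. Chromosome 4 followed in ESC with a level of 2.72 (2.67 to 2.77) and a ratio of 1.75 (1.72 to 1.78), and led in NPC with 0.389 (0.379 to 0.399) and 1.42 (1.39 to 1.46). Chromosome 11 had the highest distal ESC level of all, 2.73 (2.69 to 2.78), at a ratio of 1.66 (1.63 to 1.69). In NPC it stood at 0.353 (0.344 to 0.362), 1.28 times the rest (1.25 to 1.32). On none of the 19 chromosomes was the distal end the richest 5 Mb window in ESC. It was the second richest on chromosomes 11 and 15.

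Chromosomes 18, 17 and 3 formed the other end of the range. The distal end of chromosome 18 had 2201 ESC reads with the antibody and 6189 without, a level of 0.356 (0.339 to 0.373) against 1.31 in the rest, a ratio of 0.272 (0.259 to 0.286). In NPC 1631 over 8386 reads gave 0.194 (0.184 to 0.205), a ratio of 0.761 (0.721 to 0.802). Chromosome 17 stood at 0.464 in ESC (0.445 to 0.485), although the rest of that chromosome had the highest ESC level of any, 1.70, which gave a ratio of 0.273 (0.262 to 0.285). Its NPC ratio of 0.723 (0.686 to 0.761) was the lowest of the 19. Chromosome 3 had 0.423 in ESC (0.406 to 0.440) and a ratio of 0.358 (0.343 to 0.372), with 0.818 in NPC (0.781 to 0.857). The distal end was the poorest 5 Mb window of chromosomes 17 and 18 in ESC, of 18 windows each. Chromosomes 13 and 12 were less extreme, with ratios of 0.521 and 0.577 in ESC and 0.877 and 0.938 in NPC.

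In RefSeq's gene order on GRCm38.p6, used for names alone and not placed on the mm9 tiles, the outermost named protein-coding genes of chromosome 17 were Mettl4 and Adcyap1, which encodes the neuropeptide PACAP. On chromosome 3 they were Wls, which encodes the carrier of Wnt proteins to the cell surface, and Rpe65, which encodes the retinoid isomerase of the retinal pigment epithelium. On chromosome 4 they were Samd11, Noc2l and Klhl17.

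The NPC/ESC ratio was lowest where the distal end was rich in ESC. The ESC level is the denominator of this ratio, so that part of the relation is built in. Chromosomes 5, 11 and 15 had the lowest distal NPC/ESC ratios, at 0.129 (0.124 to 0.134), 0.129 (0.125 to 0.133) and 0.131 (0.127 to 0.136). On chromosome 5 the distal excess of 1.49 in ESC (1.46 to 1.52) stood beside 1.07 in NPC (1.04 to 1.10). The highest distal ratios belonged to chromosome 18 with 0.547 (0.509 to 0.588), chromosome 3 with 0.487 (0.458 to 0.518) and chromosome 17 with 0.428 (0.400 to 0.457), which were 2.80, 2.29 and 2.64 times the ratio in the rest of those chromosomes. Over the 19 distal ends the log2 ESC and NPC levels had a Pearson r of 0.961 and a Spearman rho of 0.923. These points share libraries, and ESC levels also ran with input reads per tile (r = 0.897, rho = 0.770), so that the values are a description.

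**Figure D2:**
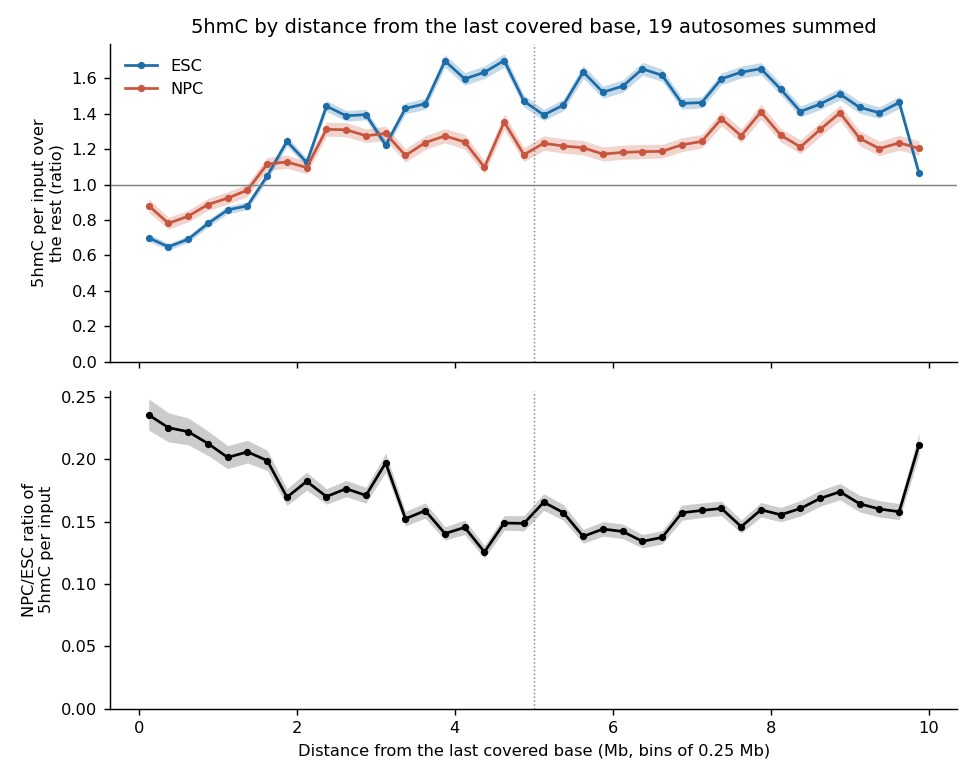
Top, 5hmC per input in bins of 0.25 Mb over that of the rest of the autosomes, for ESC (blue) and NPC (red), by distance from the last covered base, with the 19 autosomes summed. Bottom, the NPC/ESC ratio of the same bins. Bands are 95% counting intervals and the dotted line marks 5 Mb. Both cell types lie below the rest in the outermost 1 Mb and above it from 2 Mb on. The NPC/ESC ratio falls to 0.126 in the bin centred at 4.375 Mb and is higher again at the right edge, with 0.212 in the bin centred at 9.875 Mb.

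5hmC was low at the very end and rose inward. In the outermost 100 kb the ESC level was 1.08 (1.03 to 1.13), 0.764 times that of the rest, from 352 tiles. It was lowest between 0.25 and 0.5 Mb, at 0.914 (0.888 to 0.941), and still 1.04 between 0.5 and 1 Mb. It then rose to 1.43 (1.41 to 1.45) at 1 to 2 Mb, 1.89 at 2 to 3 Mb, 2.05 at 3 to 4 Mb and 2.26 (2.23 to 2.28) at 4 to 5 Mb. These sums hid differences among chromosomes. At 1 to 2 Mb 14 chromosomes still lay below their own rest in ESC and 5 above, with a median ratio of 0.613. The median was 0.449 in the outermost 100 kb and 1.15 at 2 to 3 Mb, where 7 lay below and 12 above. The summed levels stayed above the rest beyond 5 Mb, with 2.22 at 6 to 8 Mb, 1.82 at 10 to 15 Mb and 1.68 at 20 to 30 Mb. They fell to 1.37 at 30 to 50 Mb and 1.26 farther in. The 5 Mb line was therefore no edge: the tiles just inside it, at 4.5 to 5 Mb, had 2.23 in ESC and 0.332 in NPC, and those just outside, at 5 to 5.5 Mb, had 2.002 and 0.323. The other threshold left out tiles of low coverage. Distal tiles with exactly 5 input reads had levels of 0.836 and 0.185, and those with 4 had 0.723 and 0.185.

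NPC followed the same course with a smaller span. The NPC level was 0.237 (0.220 to 0.255) in the outermost 100 kb, lowest at 0.206 (0.198 to 0.215) between 0.25 and 0.5 Mb, and 0.274 (0.269 to 0.279) at 1 to 2 Mb. At 1 to 2 Mb 13 chromosomes lay below their own rest in NPC and 6 above, with a median ratio of 0.933. The summed NPC level reached 0.329 (0.324 to 0.335) at 2 to 3 Mb and stayed near there, with 0.327 at 3 to 4 Mb and 0.320 at 4 to 5 Mb. The NPC/ESC ratio thus fell from 0.220 (0.202 to 0.240) in the outermost 100 kb and 0.247 (0.231 to 0.264) from there to 0.25 Mb to 0.142 (0.139 to 0.145) at 4 to 5 Mb.

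Most chromosomes had a low outermost megabase, but the drop was small or missing on several of the 5 poor distal ends. This split was chosen after the profile by distance was seen. In ESC the outermost 1 Mb was poorer than the next 4 Mb on 18 of 19 chromosomes, 17 of them beyond counting error, and in NPC on 16, 14 of them beyond counting error. Summed over chromosomes it had 0.524 times the ESC level of the next 4 Mb (0.516 to 0.531) and 0.709 times the NPC level (0.694 to 0.725). The drop was deepest in ESC on chromosome 8, from 2.005 to 0.420, a ratio of 0.210 (0.191 to 0.229), and on chromosome 10, from 2.30 to 0.483, likewise 0.210 (0.190 to 0.232). Chromosome 14 went from 1.74 to 0.378, a ratio of 0.217 (0.195 to 0.241). Chromosome 18 was the exception in ESC, where the outermost megabase was higher, 0.407 against 0.344, a ratio of 1.18 (1.04 to 1.34). On chromosome 17 the ESC ratio was 0.964, with an interval that included 1 (0.868 to 1.07). In NPC chromosomes 7, 13 and 18 had ratios above 1, with intervals that included 1, and the intervals of chromosomes 3 and 17 included 1 as well. Of the 5 poor distal ends only chromosome 12 had an outermost megabase below the next 4 Mb beyond counting error in NPC, at 0.596 (0.521 to 0.681).

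Against the rest of the chromosome, the outermost 1 Mb was lower in ESC on 17 of 19 chromosomes. The exceptions were chromosome 4, where it stood at 2.45, 1.58 times the rest, and chromosome 15, with 1.45 and 1.02 times. The interval of chromosome 15 included 1 (0.971 to 1.07). In NPC it was lower on 17 chromosomes too. The exceptions were chromosome 15, at 1.11 (1.03 to 1.19), and chromosome 7, at 1.06 with an interval that included 1 (0.992 to 1.12). The intervals of chromosomes 5 and 13, which lay below, included 1 as well. Without the outermost megabase the distal ends stood at 1.35 times the rest (1.34 to 1.36) for ESC, and for NPC at 1.19 times (1.178 to 1.198), and the outermost megabase alone at 0.707 (0.697 to 0.717) and 0.842 (0.825 to 0.860).

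**Figure D3:**
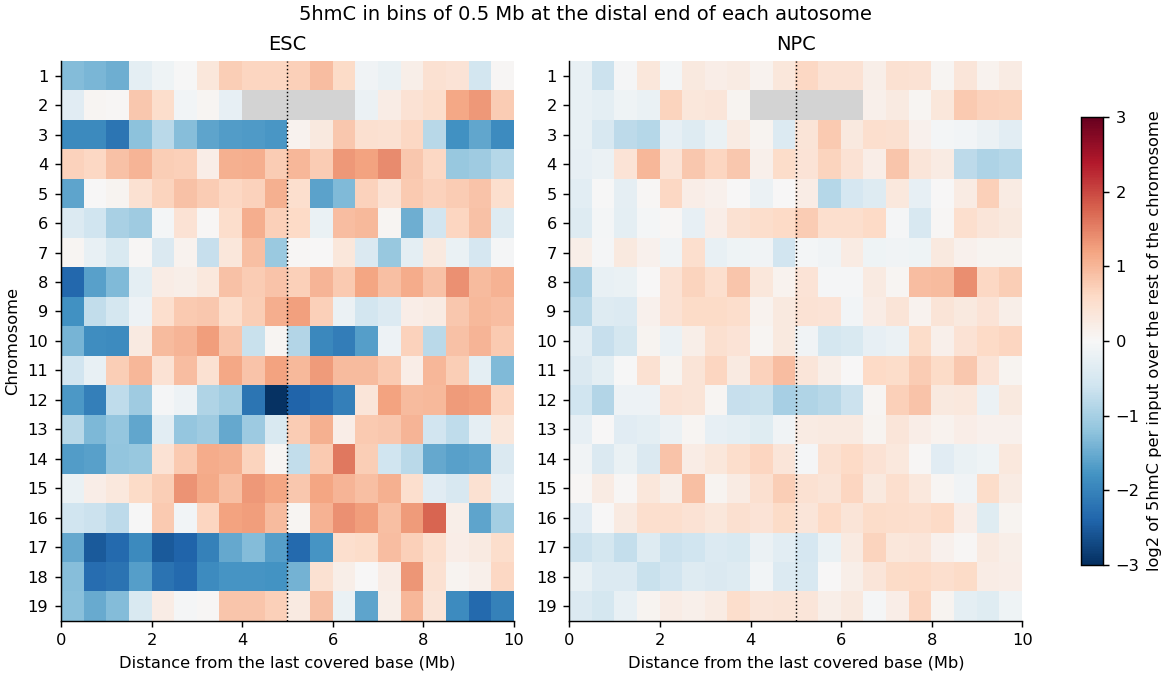
log2 of 5hmC per input over the rest of the same chromosome, in bins of 0.5 Mb from the last covered base (left edge) to 10 Mb, for ESC (left) and NPC (right), with red for higher, blue for lower and grey for bins with too few input reads. The dotted line marks 5 Mb. ESC bins are blue at the left edge on most chromosomes. Chromosomes 3, 12, 13, 17 and 18 are lower than their rest over the whole 5 Mb in ESC. On chromosome 12 the bin from 2 Mb is only slightly lower, with a log2 of -0.0261. NPC colours are paler, and some bins have opposite signs in ESC and NPC.

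Windows of 1 Mb showed where the levels were concentrated. At a fold of 1.5 over the rest of the chromosome, chosen after the levels were seen, 29 of 93 distal windows with at least 100 kept tiles were higher in ESC (31.2%), against 14.0% of all autosomal windows. In the other direction 35 were lower (37.6%), near the 44.0% of all windows. In NPC 6 were higher (6.45%, background 1.91%) and 4 lower (4.30%, background 4.55%). The 29 rich ESC windows came from 12 chromosomes, and 28 of them lay 1 to 5 Mb from the end. In the outermost megabase 1 of 19 windows was higher and 12 were lower (63.2%).

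The richest distal megabase in both cell types lay on chromosome 11, from 116845001 to 117845000, which is 4 to 5 Mb from the end. It had 3.41 in ESC (3.29 to 3.54) and 0.487 in NPC (0.463 to 0.512). In ESC it was followed by chromosome 15 from 98495001 to 99495000 with 3.38 (3.25 to 3.51) and chromosome 10 from 125995001 to 126995000 with 3.10 (2.97 to 3.23). In NPC it was followed by 2 windows of chromosome 4, from 153630001 to 154630000 with 0.457 (0.434 to 0.480) and from 151630001 to 152630000 with 0.454 (0.430 to 0.479). The poorest in ESC were chromosome 12 from 116255001 to 117255000, with 0.262 (0.224 to 0.307) from 96 kept tiles, chromosome 18 from 87770001 to 88770000, with 0.271 (0.239 to 0.308), and chromosome 17 from 92270001 to 93270000, with 0.309 (0.272 to 0.350). Their NPC/ESC ratios were 0.585 (0.463 to 0.739), 0.674 (0.561 to 0.808) and 0.581 (0.484 to 0.696). High ratios are in part built in, since these windows were chosen for low ESC levels. The lowest NPC level was 0.143 (0.125 to 0.162), on chromosome 3 from 157600001 to 158600000, with 0.401 in ESC.

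The NPC/ESC ratio was also compared at like ESC levels. The ESC reads were split at random, 1 share sorted all kept tiles into 10 bins, and the other share gave the ESC levels. The richest bin held 13.9% of the distal tiles and 9.84% of the rest, and the poorest 8.04% and 10.1%. In the poorest bin the NPC/ESC ratio was 0.519 in the distal ends and 0.508 in the rest. In the fifth bin it was 0.290 and 0.287, and in the richest 0.105 and 0.112. Over the 10 bins the distal ratio was between 0.939 and 1.05 times that of the rest, on both sides of 1. With the bins weighted as in the distal ends, the NPC/ESC ratio was 0.982 times that of the rest, against 0.910 without bins. The ESC level itself still differed within bins, with 1.09 times that of the rest after weighting, and the NPC level 1.07 times.

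**Figure D4:**
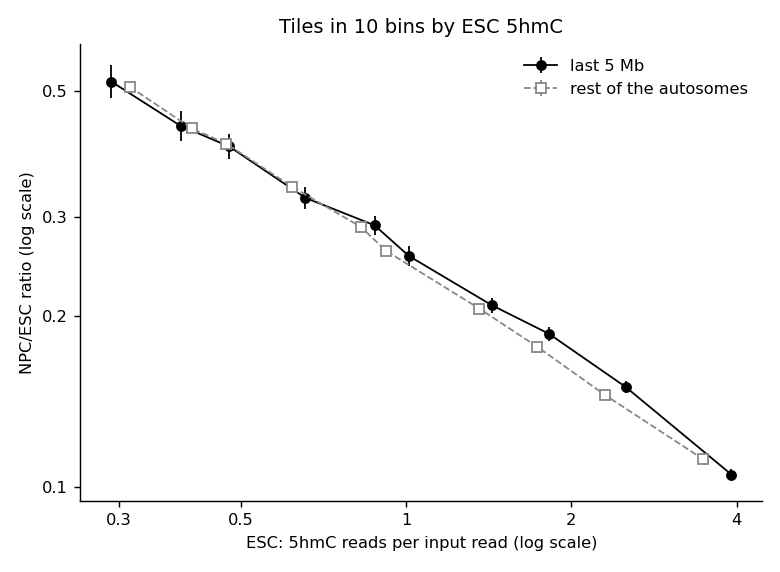
NPC/ESC ratio (log axis) against the ESC 5hmC level (log axis) in 10 bins of tiles sorted by ESC 5hmC, for the last 5 Mb (filled circles) and the rest of the autosomes (open squares), with 95% counting intervals. The lines run close together from a ratio of about 0.519 in the poorest distal bin to 0.105 in the richest.

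A single tile counted as enriched where its ratio of 5hmC to input was at least 2 times the autosomal one, with no fewer than 10 reads of the 5hmC library. In ESC 2904 distal tiles were enriched, 16.0% (15.5 to 16.5), against a background of 10.8% of all kept autosomal tiles. In NPC 1786 were enriched, 9.84% (9.41 to 10.3), against 6.08%. The tiles enriched in ESC and in NPC alike numbered 703, 3.87% against a background of 2.24%, which are 24.2% of the ESC tiles and 39.4% of the NPC tiles. The outermost 1 Mb held few, 167 in ESC (4.63%) and 131 in NPC (3.63%). Among the 3987 distal tiles enriched in either cell type, 1631 (40.9%) had an NPC/ESC ratio at least 2-fold below the autosomal one, against a background of 41.5%, and 872 (21.9%) at least 2-fold above it, against 21.6%. These shares lay near the background, but the balance of lower and higher tiles depended on the pseudocount of 0.5 reads. With 5 reads it turned round, to 570 below (16.4%, against 14.3% over all autosomes) and 1146 above (33.0%, against 34.4%).

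Chromosomes 4, 11 and 15 had the highest shares of enriched distal tiles in ESC. In ESC 373 of 993 kept tiles were enriched on chromosome 4 (37.6%), 353 of 991 on chromosome 11 (35.6%) and 340 of 993 on chromosome 15 (34.2%), against 12.2%, 14.6% and 10.6% in the rest of these chromosomes. In NPC chromosome 4 had 222 (22.4%) against 6.69% in the rest. At the other end 3 of 957 distal tiles were enriched in ESC on chromosome 3 (0.313%), 4 of 916 on chromosome 18 (0.437%) and 10 of 944 on chromosome 17 (1.06%), against 7.89%, 9.46% and 15.2% in the rest. Chromosome 18 had 3 in NPC (0.328%), against 5.36% in the rest. The share was higher in the distal end than in the rest on 14 of 19 chromosomes in ESC and on 15 in NPC. Distal tiles of chromosomes 18 and 17 held 15.9 and 16.5 input reads, against 39.0 and 41.9 on chromosomes 4 and 11, and the part of this depth in the counts was not tested.

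**Figure D5:**
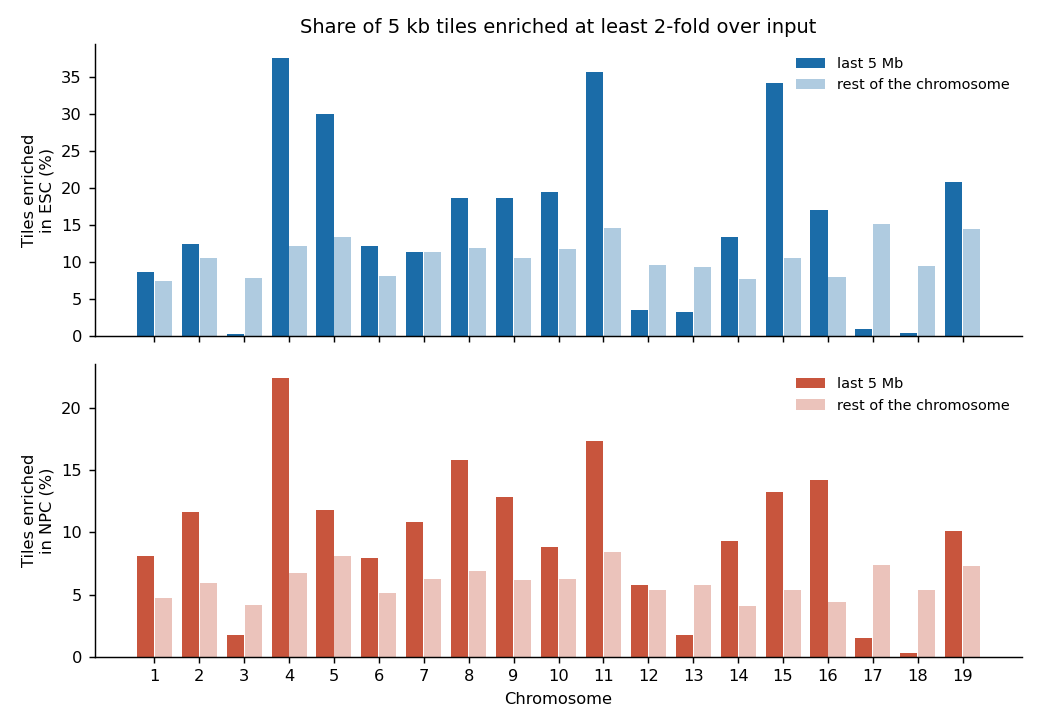
Percentage of kept 5 kb tiles enriched at least 2-fold over input with 10 or more 5hmC reads, in ESC (top) and NPC (bottom), for the last 5 Mb (dark bars) and the rest of each autosome (pale bars). The dark bars of chromosomes 4, 11 and 15 reach 37.6%, 35.6% and 34.2% in ESC, and those of chromosomes 3, 17 and 18 are close to 0.

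Enriched tiles also joined into runs. More tiles were enriched in the distal ends, which by itself makes runs more frequent, and the part of this density was not tested. Runs of at least 5 adjacent tiles numbered 83 in ESC and 13 in NPC within the distal ends and held 18.9% and 4.37% of the enriched distal tiles, against 13.4% and 1.88% in the rest. The longest ESC run spanned 85 kb on chromosome 11, from 117885001 to 117970000, where ESC reached 5.09-fold (4.55 to 5.70) and NPC 1.69-fold (1.43 to 1.99). The next spanned 80 kb on chromosome 10, from 126975001 to 127055000, with 4.64-fold (4.13 to 5.22) and 1.61-fold (1.34 to 1.93), and 70 kb on chromosome 16, from 93930001 to 94000000, with 3.13-fold (2.68 to 3.68) and 1.69-fold (1.36 to 2.08). Their NPC/ESC ratios were 0.0617 (0.0505 to 0.0756), 0.0649 (0.0522 to 0.0806) and 0.1003 (0.0766 to 0.131). Low ratios are in part built in, since these runs were chosen by their ESC enrichment. In NPC the longest run covered 45 kb of chromosome 15, from 100885001 to 100930000, where NPC reached 3.56-fold (2.90 to 4.37) and ESC 2.30-fold (1.92 to 2.77), and the second 40 kb on chromosome 4, from 153865001 to 153905000, with 3.46-fold (2.77 to 4.32) and 2.95-fold (2.43 to 3.60). The third rank in NPC was shared by 35 kb runs on chromosome 11, from 117245001 to 117280000 (2.90-fold in NPC, 1.89-fold in ESC), and on chromosome 15, from 98800001 to 98835000 (3.21-fold and 2.21-fold). The NPC 5hmC library was the shallowest, and the part of its depth in run lengths was not tested.

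The named tiles were the extremes of 1463 distal tiles in which both inputs and 1 of the 5hmC libraries reached 20 distinct reads, and their intervals are not adjusted for that choice. The highest ESC enrichment lay on chromosome 11 from 120145001 to 120150000, at 1.70 Mb from the end. ESC had 244 reads of the 5hmC library there and 21 of the input, which is 8.15-fold (5.22 to 13.4). NPC had 3 and 34, which gave an NPC/ESC ratio of 0.00759 (0.00143 to 0.0281). A pair of tiles on the same chromosome, from 117940001 to 117945000 and from 117900001 to 117905000, reached 7.69-fold (4.91 to 12.7) and 6.76-fold (4.35 to 11.02) in ESC, and both lie in the 85 kb run. The remaining tiles of this list, on chromosome 10 from 126985001 to 126990000 and from 127685001 to 127690000, reached 6.91-fold and 6.54-fold. All 5 had an NPC/ESC ratio of at most 0.0523. Low ratios follow in part from the choice of these tiles by their ESC level, the denominator of the ratio.

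The highest NPC enrichments gathered on chromosome 4. From 154065001 to 154070000 NPC held 47 5hmC reads over 24 input reads, 7.38-fold (4.42 to 12.6), and ESC 73 over 21, 2.44-fold (1.48 to 4.17). The NPC enrichment was 6.93-fold (4.17 to 11.8) from 153965001 to 153970000 and, close by, 6.85-fold (3.98 to 12.1) from 153750001 to 153755000. The other 2 lay on chromosome 5 from 150340001 to 150345000 (6.82-fold) and on chromosome 11 from 118730001 to 118735000 (6.75-fold). In 3 of these 5 tiles the plus strand held at most 21.1% of the NPC 5hmC reads: 14.9% from 154065001, 15% from 153750001 and 21.1% on chromosome 5. The ESC 5hmC reads were skewed the same way there, with 27.4%, 36.4% and 21.5%. The part of such uneven strands in the enrichment was not tested.

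The highest NPC/ESC ratio in a distal tile was 1.69 (0.715 to 4.08), on chromosome 12 from 118345001 to 118350000, with 32 NPC and 15 ESC 5hmC reads. Chromosome 4 followed with 1.57 (0.709 to 3.46) from 153685001 to 153690000, and chromosome 8 with 1.52 (0.632 to 3.66) from 129035001 to 129040000. The remaining 2 tiles had 1.49 (0.604 to 3.70), from 152045001 to 152050000 of chromosome 4, and 1.40 (0.599 to 3.26), from 118725001 to 118730000 of chromosome 11. The autosomal NPC/ESC ratio was 0.186, and that these tiles lie above it follows from how they were chosen. The 5 tiles with the lowest ratio had no NPC 5hmC read. They met the read minimum of the list by their ESC 5hmC reads alone. That their ratios are low therefore follows from how they were chosen as well. The part of the shallower NPC 5hmC library in the missing reads of these tiles was not tested. The first, on chromosome 10 from 126445001 to 126450000, had 157 ESC 5hmC reads, which with 0 NPC reads allows a ratio of up to 0.0231. That on chromosome 4 from 155120001 to 155125000 had 89 (up to 0.0592). That on chromosome 15 from 100020001 to 100025000 had 85 (up to 0.0548). The tile of chromosome 2 from 181420001 to 181425000 had 73 (up to 0.0542), and a further one of chromosome 10 from 128155001 to 128160000 had 54 (up to 0.0957). A pair of these tiles lay within the outermost megabase, at 0.508 Mb from the end on chromosome 4 and 0.326 Mb on chromosome 2.

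The opposite, centromere-proximal ends gave a contrast. The first 5 Mb of coverage on the same chromosomes, 16632 tiles, had an ESC level of 1.24 (1.23 to 1.24) and an NPC level of 0.244 (0.242 to 0.246). The distal ESC level was 1.41 times as high (1.40 to 1.43), the distal NPC level 1.22 times (1.21 to 1.24) and the NPC/ESC ratio 0.864 times (0.851 to 0.876).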

How the data were processed

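5hmC was profiled by immunoprecipitation of denatured, barcoded DNA and sequencing (hMeDIP-seq) in 2 cell types with 1 library each for 5hmC and input. Per the submitters' processing notes, Bowtie 0.12.7 and build mm9 were used. The deposited files list read positions extended to 350 bp with the number of reads (a raw count) at each, which the values show as whole numbers. How multiple matches were treated is not given in the sources used here.

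Each position was counted as 1 distinct read and placed by its midpoint in tiles of 5 kb. 854 distal tiles (4.49%) and 40662 others (8.55%) fell under 5 summed input reads. Enrichment calls scaled each library to its autosomal reads with a pseudocount of 0.5. Intervals were exact where a count was under 2000 and normal on the log scale otherwise. Windows of 5 Mb were ranked where they held at least 500 kept tiles, and named windows of 1 Mb held at least 500 input reads. Named regions followed a rule of size: the 3 extreme chromosomes and windows, the 5 extreme tiles of each list and the longest runs. The calculations used Python 3.11.15 with scipy 1.17.1 for the intervals, numpy 2.4.6, pandas 2.3.3 and matplotlib 3.10.9, and were tested on simulated data. The region, the lists and the rules were chosen with earlier results of these data known. GC content was not analysed, since no mm9 sequence was used.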

Additional observations from a re-analysis of the deposited data

Results flagged for a closer look

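In 10 of 93 distal windows of 1 Mb, ESC and NPC lay on opposite sides of the rest of their chromosome, each beyond counting error. Without replicates this difference was not tested. The share of such windows over all autosomal windows was not counted, so that the 10 of 93 is no result about distal ends in particular. ESC were above and NPC below in 3: the outermost megabase of chromosome 4 (1.58 times the rest in ESC, 0.866 in NPC, an NPC/ESC ratio 0.550 times that of the rest), 1 to 2 Mb on chromosome 2 (1.39, 0.898 and 0.645) and 4 to 5 Mb on chromosome 7 (1.38, 0.837 and 0.605). ESC were below and NPC above in 7. At 1 to 2 Mb these were chromosome 1 (0.612, 1.14 and 1.85), chromosome 16 (0.798, 1.32 and 1.66) and chromosome 7 (0.881, 1.16 and 1.31). At 2 to 3 Mb they were chromosome 12 (0.935, 1.32 and 1.41) and chromosome 7 (0.900, 1.17 and 1.30). The last were chromosome 2 at 3 to 4 Mb (0.944, 1.17 and 1.24) and chromosome 10 at 4 to 5 Mb (0.833, 1.13 and 1.35).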

How the results depend on the processing

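With 1 library per group the spread between cultures is unknown. No paired analysis was possible because each group held 1 library. All values below are given in the order ESC, NPC and NPC/ESC ratio, as distal over rest. All deposited reads, placing by the 5' end, each strand alone, an input minimum of 10 or none, leaving out tiles over 5 times the median input, or the first 5 Mb, moved them by less than counting error. Summed inputs gave 1.25 in ESC and 0.896 for the ratio, and leaving out the outermost 100 kb gave 1.25 in ESC. The last 2 Mb gave 0.861, 0.942 and 1.09, and the last 10 Mb 1.41, 1.21 and 0.858. The median over chromosomes was 1.14, 1.08 and 0.996. Bins of ESC 5hmC gave 1.09, 1.07 and 0.982, and bins of input depth, chosen after seeing the data, 1.09, 1.11 and 1.02; the cause of these shifts was not tested. Also chosen after seeing the data, 1 to 5 Mb gave 1.35, 1.19 and 0.879, and the outermost 1 Mb 0.707, 0.842 and 1.19. Leaving out each chromosome in turn gave 1.19 (without 4) to 1.28 (without 17), 1.10 (without 4) to 1.14 (without 17) and 0.893 (without 17) to 0.934 (without 11).

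Counts of distal tiles followed the rule. A fold of 3 gave 1196 enriched in ESC (6.59%, against 4.07% over all autosomes) and 913 in NPC (5.03%, against 3.11%). With that fold 598 lay below the autosomal ratio (30.8%, against 29.6%) and 377 above it (19.4%, against 20.9%). A minimum of 20 5hmC reads gave 454 in NPC (2.50%, against 1.09%) and 264 above (8.65%, against 6.73% over all autosomes). A minimum of 5 gave 1641 below (35.2%, against 32.3%) and 1395 above (29.96%, against 35.4%). A pseudocount of 5 reads gave 570 below (16.4%, against 14.3%) and 1146 above (33.0%, against 34.4%), which reversed the balance of lower and higher tiles. Fewer tiles reach a higher fold or minimum by construction. The remaining counts stayed within 1.5 times. The share enriched was higher in the distal ends than over all tiles in each setting run, for both cell types. Bins of GC content were not run.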

Other observations

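Chromosome X, outside the autosomes described, also differed at its distal end, in another way. Its last 5 Mb, 881 kept tiles, stood at 1.03 in ESC (0.990 to 1.07), against 0.681 in the rest of chromosome X. That is a ratio of 1.51 (1.45 to 1.58). Its NPC level was 0.309 (0.294 to 0.326), against 0.211 in the rest, a ratio of 1.46 (1.39 to 1.54). The signal lay in the outermost megabase, which had 2.56 in ESC and 0.659 in NPC (0.607 to 0.715), whereas the outermost megabase was poor on most autosomes. The next 4 windows lay between 0.349 and 0.783 in ESC. Without its tile richest in NPC 5hmC, which held 266 NPC and 579 ESC 5hmC reads, the outermost megabase still had 2.23 in ESC (2.07 to 2.40) and 0.514 in NPC (0.469 to 0.563), 3.27 and 2.43 times the rest of chromosome X. That megabase held 158 kept tiles and 16.4 input reads per tile, against 10.5 in the rest.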
